A study of Homo sapiens with 12 samples.

Results

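The EGF receptor family and its ligands were followed across 2 prostate cancer cell lines, 22RV1 and C4-2B, with and without an aptamer called the 56 mer. The genes were taken by symbol, with no threshold on a measured value: the 4 receptors EGFR, ERBB2, ERBB3 and ERBB4 and the 6 ligands AREG, EREG, TGFA, HBEGF, BTC and EGF. All 10 were found in the expression tables of both lines, among 60314 named genes. An aptamer is a single-stranded oligonucleotide that folds into a shape able to bind a target. The series title places the work in sensitising prostate cancer to hormone therapy.

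There were 12 RNA sequencing libraries in 4 groups of 3. One group was 22RV1 treated with the 56 mer at 50 nM together with L-glutamine at 2 mM for 48 h, and its control was 22RV1 with L-glutamine at 2 mM alone for 48 h. The other pair was C4-2B treated with the 56 mer at 50 nM together with L-glutamine at 2 mM for 48 h, and C4-2B with L-glutamine at 2 mM alone for 48 h. Both lines carry the genotype label WT and were kept in RPMI medium lacking glutamine, with 5% serum, so every library, controls included, comes from cells given the same defined glutamine. 22RV1 and C4-2B are human castration-resistant prostate cancer lines; C4-2B descends from the LNCaP line. Both conditions are represented in each of these 2 lines and in no other line, and the labels list no scrambled or other control oligonucleotide. Libraries of a group are described as biological triplicates, with no culture day or batch. The p-values below therefore set group differences against a variance estimated from the spread between these libraries.

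EGFR, ERBB2, ERBB3 and ERBB4 are receptor tyrosine kinases of the cell surface. Ligand binding lets them pair with themselves or each other, which switches on the RAS and ERK cascade and the PI3K and AKT cascade. EGF, AREG and TGFA bind EGFR, whereas HBEGF, BTC and EREG bind both EGFR and ERBB4. ERBB2 has no known ligand of its own and acts as a partner, and ERBB3 has a weak kinase and signals through its partners after binding neuregulins. The ligands are made as membrane-anchored precursors that proteases such as ADAM17 and ADAM10 cut free. In prostate epithelium and prostate cancer these receptors are known for growth signalling and for cross-talk with the androgen receptor.

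The recovered reads numbered 8847368 to 13740386 in 22RV1 libraries with 56 mer and 11834331 to 13586045 in 22RV1 controls. In C4-2B they numbered 12277758 to 12508539 with 56 mer and 10245014 to 13627140 in controls. Genes with at least 1 read numbered 28342 to 31010 per 22RV1 library and 20779 to 22686 per C4-2B library. Luminal prostate genes were expressed in both lines: in controls the luminal keratin gene KRT18 had 109 RPKM (reads recovered per gene, scaled to exon length and to the library's total) in 22RV1 and 164 in C4-2B, and FOLH1, which encodes the prostate membrane antigen PSMA, had 144 in 22RV1 and 130 in C4-2B. The basal genes KRT5 and TP63 and the T cell gene CD3E had no reads in any of the 12 libraries, and the basal keratin gene KRT14 had 0 to 7 reads per 22RV1 library and 0 to 10 per C4-2B library. Of the 11 marker genes of other cell types, 3 passed the low-value filter in each line. The highest were COL1A1, a fibroblast collagen gene, at 2.43 in 22RV1 and 3.27 in C4-2B, and CD68, a macrophage gene, at 0.668 in 22RV1 and 5.56 in C4-2B. In 22RV1 the 56 mer 1 library stood apart, its deviation from the line's mean following GC content across genes with a Spearman rho of -0.583, against -0.143 to 0.377 in the other 5 libraries. In C4-2B the trend with transcript length, taken as that of a gene's longest transcript, separated the groups. Its rho was -0.334, -0.104 and 0.0161 in the 56 mer libraries, against 0.0649, 0.198 and 0.246 in controls. The trend with GC content there was -0.177, 0.305 and 0.318 in the 56 mer libraries, against -0.198, -0.0037 and -0.209 in controls.

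In untreated cells of both lines 3 receptors were the most abundant members, but the order differed. Levels between genes are compared here as RPKM, with exon lengths from the GENCODE 29 annotation. In 22RV1 controls ERBB3 stood at 22.3 ± 0.132, ERBB2 at 16.5 ± 0.293 and EGFR at 9.13 ± 0.204 RPKM (SD, n = 3). In C4-2B controls the first receptor was ERBB2 at 31.5 ± 1.15, followed by ERBB3 at 18.2 ± 0.527 and EGFR at 8.82 ± 0.614 (SD, n = 3). The ranges of these 3 genes did not overlap in either line. The place of ERBB3 above ERBB2 in 22RV1 depended on the length used: with the longest transcript in place of all exons, ERBB2 had 34.6 and ERBB3 had 34.1 RPKM.

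**Figure D1:**
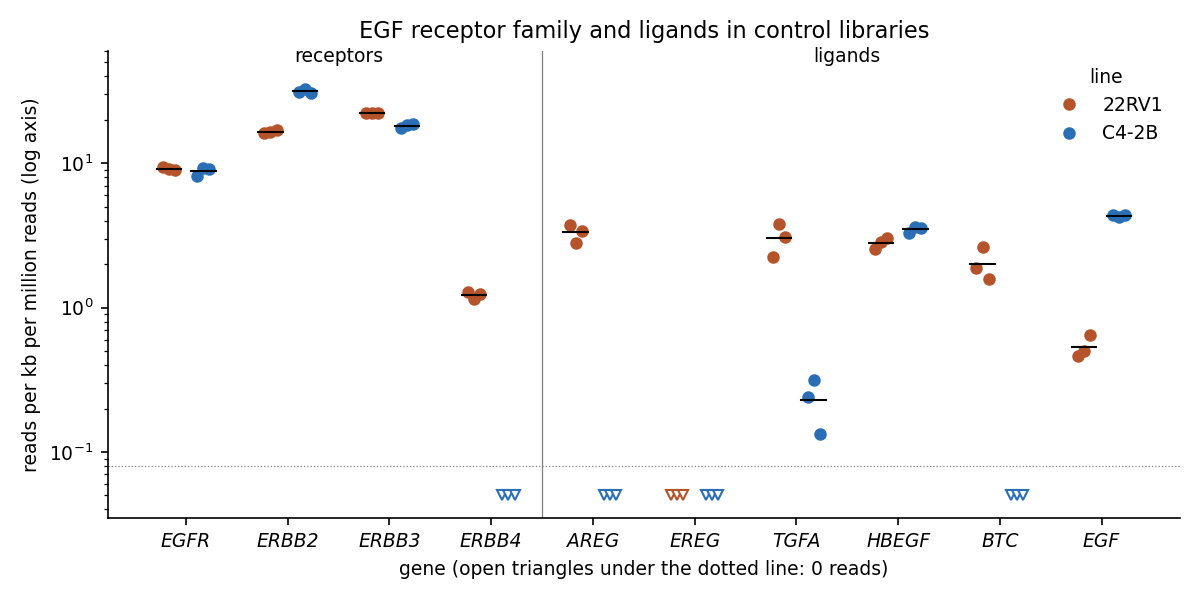
Level of each member in control libraries, in RPKM on a logarithmic axis, with 1 point per library and a bar at the mean, for 22RV1 and C4-2B; open triangles are libraries with 0 reads and are not to scale. ERBB2, ERBB3 and EGFR lie above the ligands in both lines, and ERBB4, AREG, EREG and BTC have no reads in C4-2B controls.

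ERBB4, the receptor that binds neuregulins, HBEGF and BTC with an active kinase of its own, was detected in 22RV1 only as a minor receptor and had no reads in any of the 6 C4-2B libraries. It stood at 1.22 ± 0.0685 RPKM in 22RV1 controls (SD, n = 3). As a share of the summed level of the 4 receptors, 22RV1 controls held 18.6% ± 0.435 EGFR, 33.6% ± 0.539 ERBB2, 45.3% ± 0.0482 ERBB3 and 2.48% ± 0.127 ERBB4 (SD, n = 3). C4-2B controls held 15.1% ± 0.757 EGFR, 53.8% ± 1.27 ERBB2 and 31.1% ± 0.662 ERBB3 (SD, n = 3). ERBB2 thus made up the greater part of the summed receptor level in C4-2B, and no receptor did so in 22RV1. Part of the ERBB2 reads could belong to MIEN1 and PGAP3, genes whose exons overlap it.

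The lines also differed in their ligands. In 22RV1 controls 4 ligands lay close together: AREG at 3.32 ± 0.469, TGFA at 3.04 ± 0.781, HBEGF at 2.81 ± 0.242 and BTC at 2.02 ± 0.537 RPKM (SD, n = 3). Each overlapped in range with its neighbour in this order, whereas AREG and BTC, at its ends, did not overlap; with the longest transcript as length, HBEGF and TGFA changed places. EGF followed at 0.536 ± 0.0988 and EREG had no reads in controls. In C4-2B controls EGF led at 4.32 ± 0.0571, HBEGF followed at 3.48 ± 0.192, TGFA stood at 0.229 ± 0.0912 (SD, n = 3), and AREG, EREG and BTC had no reads. EGF made up 53.8% ± 1.78 and HBEGF 43.3% ± 1.57 of the summed ligand level in C4-2B controls, whereas in 22RV1 controls the highest share was 28.6% ± 6.05 for AREG (SD, n = 3).

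Set side by side as RPM, that is, reads scaled to the library's total alone, EGFR was at 114 ± 2.56 in 22RV1 controls and 110 ± 7.69 in C4-2B controls (SD, n = 3 each), with overlapping ranges. ERBB2 was 1.91-fold higher in C4-2B, at 171 ± 3.02 in 22RV1 and 325 ± 11.8 in C4-2B, and ERBB3 was 1.22-fold higher in 22RV1, at 202 ± 1.19 in 22RV1 and 165 ± 4.77 in C4-2B (SD, n = 3 each). Exons of MIEN1 and PGAP3 overlap those of ERBB2. MIEN1 averaged 553 normalized counts in 22RV1 and 1473 in C4-2B, and PGAP3 176 in 22RV1 and 334 in C4-2B. Their part in the ERBB2 ratio was not tested. TGFA was 13.3-fold higher in 22RV1, at 15.1 ± 3.87 in 22RV1 and 1.14 ± 0.453 in C4-2B (SD, n = 3 each). EGF was 8.05-fold higher in C4-2B, at 3.29 ± 0.605 in 22RV1 and 26.5 ± 0.350 in C4-2B (SD, n = 3 each). HBEGF was 1.24-fold higher in C4-2B, at 8.48 ± 0.732 in 22RV1 and 10.5 ± 0.579 in C4-2B (SD, n = 3 each), a ratio like that of ERBB3. The authors normalized each line's table separately, so these levels between lines are a description with no test.

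A count of 0 allows up to 3 reads per library, which is 0.293 RPM in C4-2B controls. Against that limit ERBB4 was at least 54.1-fold higher in 22RV1 controls, BTC at least 19.4-fold and AREG at least 18.7-fold; the limit covers counting error only. Of 20517 genes that passed the low-value filter in 22RV1, 1330 (6.48%) had no read in any C4-2B library. ERBB4, AREG and BTC were among them, out of 9 members that passed that filter in 22RV1. Of 16657 genes that passed it in C4-2B, 117 (0.702%) had no read in any 22RV1 library. Both lines were sequenced to similar totals, but the C4-2B libraries detected fewer genes, and its part in these zeros was not tested.

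AREG, EREG and BTC are neighbours on chromosome 4, together with EPGN, which encodes the related ligand epigen. In the RefSeq order of protein-coding genes, EPGN, EREG, AREG and BTC follow each other directly, and all 4 had 0 reads in the 6 C4-2B libraries. Of the 5 genes on each side, MTHFD2L, RCHY1 and THAP6 were read in C4-2B and PARM1, next to BTC, only weakly. CDKL2 had at most 4 reads in a C4-2B library, and PPBP, CXCL5, CXCL3, CXCL2 and ODAPH had none. In 22RV1 too, none of these had more than 6 reads in a library. MTHFD2L, a mitochondrial folate enzyme gene on the EPGN side, averaged 201 normalized counts with 56 mer and 185 in controls of 22RV1, and 187 with 56 mer and 164 in controls of C4-2B. On the BTC side PARM1, which encodes an androgen-responsive mucin-like protein, had 348 with 56 mer and 309 in controls of 22RV1, whereas in C4-2B it had 6.76 with 56 mer and 7.35 in controls. RCHY1, a ubiquitin ligase gene beyond it, had 341 with 56 mer and 363 in controls of 22RV1, and 179 with 56 mer and 191 in controls of C4-2B. Within 22RV1 the 4 ligand genes were not read equally: AREG reached 106 reads in a library and BTC 87, but EPGN at most 16 and EREG at most 2.

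**Figure D2:**
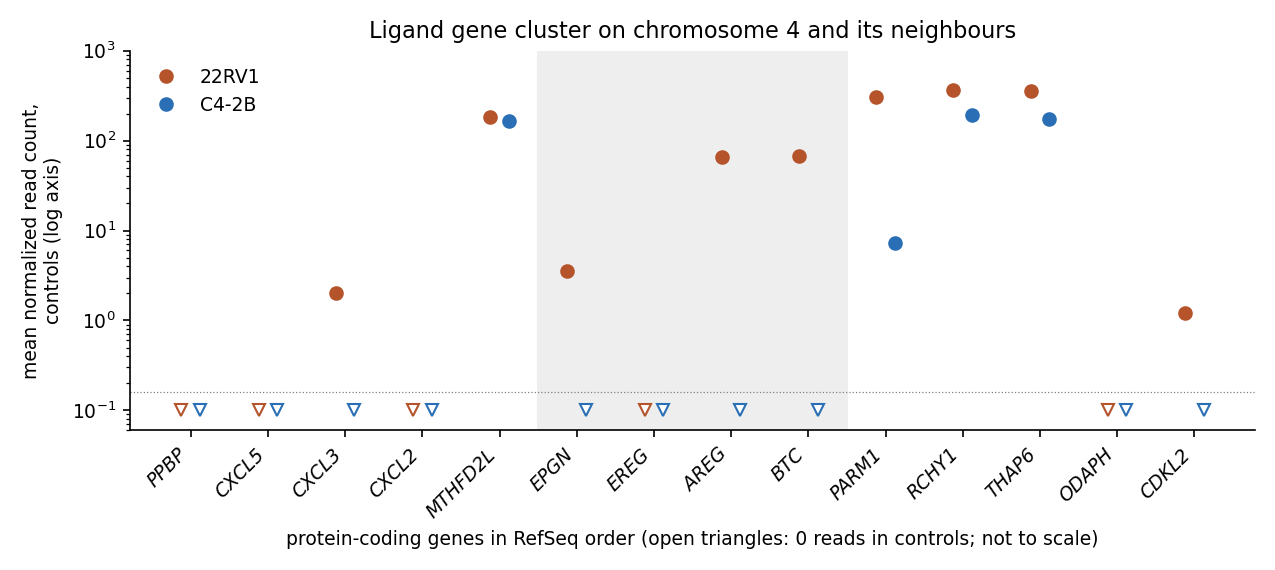
Mean normalized count in controls of 14 neighbouring protein-coding genes of chromosome 4, in RefSeq order along the horizontal axis, on a logarithmic vertical axis, for 22RV1 and C4-2B; open triangles are genes with 0 reads in controls, and the grey band marks the ligand genes. EPGN, EREG, AREG and BTC are at 0 in C4-2B, as are PPBP, CXCL5, CXCL3, CXCL2, ODAPH and CDKL2. Of the genes directly beside the band, MTHFD2L is read alike in both lines and PARM1 is at 309 in 22RV1 and 7.35 in C4-2B.

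The start regions of 7 members are shown so that their sequences can be compared: the 4 without reads in C4-2B, TGFA and EGF, which had the largest ratios between the lines among the members read in both, and EGFR, which was at a like level. They run from 250 bases before to 50 bases after the RefSeq start on GRCh38.p14, 5′ to 3′ on the gene's strand. Capitals mark every match, on either strand, to 4 short motifs: the cyclic AMP response element TGACGTCA, the TATA box TATAAA, the GC box GGGCGG and the AP-1 site TGANTCA. AREG lies at chr4:74444886-74445185 and EREG at chr4:74364895-74365194, both on the plus strand, BTC at chr4:74794474-74794773 on the minus strand and ERBB4 at chr2:212538753-212539052 on the minus strand. TGFA, higher in 22RV1, lies at chr2:70553777-70554076 on the minus strand, and EGF, higher in C4-2B, at chr4:109912633-109912932 on the plus strand. EGFR lies at chr7:55018767-55019066 on the plus strand.
AREG: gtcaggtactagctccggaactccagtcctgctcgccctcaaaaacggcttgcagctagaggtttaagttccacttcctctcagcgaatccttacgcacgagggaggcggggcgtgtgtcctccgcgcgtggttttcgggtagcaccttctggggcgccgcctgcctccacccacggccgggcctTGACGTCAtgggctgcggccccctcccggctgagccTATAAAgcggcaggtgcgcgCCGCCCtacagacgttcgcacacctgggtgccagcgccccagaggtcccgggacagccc
EREG: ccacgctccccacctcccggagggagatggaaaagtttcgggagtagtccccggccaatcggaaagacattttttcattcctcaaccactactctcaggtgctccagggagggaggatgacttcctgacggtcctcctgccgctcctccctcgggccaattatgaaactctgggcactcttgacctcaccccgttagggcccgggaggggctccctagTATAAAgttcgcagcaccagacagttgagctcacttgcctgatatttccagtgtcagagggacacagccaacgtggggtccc
BTC: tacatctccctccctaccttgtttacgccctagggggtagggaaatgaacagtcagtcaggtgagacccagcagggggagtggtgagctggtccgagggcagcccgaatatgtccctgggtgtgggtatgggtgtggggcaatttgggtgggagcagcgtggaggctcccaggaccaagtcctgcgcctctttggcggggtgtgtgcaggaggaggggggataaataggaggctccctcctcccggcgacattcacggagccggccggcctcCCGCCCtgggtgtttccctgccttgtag
ERBB4: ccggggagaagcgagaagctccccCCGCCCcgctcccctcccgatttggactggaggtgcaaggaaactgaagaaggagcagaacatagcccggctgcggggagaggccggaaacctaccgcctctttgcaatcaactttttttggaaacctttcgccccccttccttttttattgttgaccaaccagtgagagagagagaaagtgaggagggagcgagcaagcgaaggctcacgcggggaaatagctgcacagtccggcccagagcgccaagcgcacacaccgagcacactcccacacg
TGFA: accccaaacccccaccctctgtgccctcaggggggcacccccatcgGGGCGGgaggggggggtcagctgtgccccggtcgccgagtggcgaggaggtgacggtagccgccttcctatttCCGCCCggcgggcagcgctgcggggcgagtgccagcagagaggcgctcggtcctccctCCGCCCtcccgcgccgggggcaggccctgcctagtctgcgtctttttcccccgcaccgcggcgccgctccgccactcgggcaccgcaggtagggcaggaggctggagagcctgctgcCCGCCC
EGF: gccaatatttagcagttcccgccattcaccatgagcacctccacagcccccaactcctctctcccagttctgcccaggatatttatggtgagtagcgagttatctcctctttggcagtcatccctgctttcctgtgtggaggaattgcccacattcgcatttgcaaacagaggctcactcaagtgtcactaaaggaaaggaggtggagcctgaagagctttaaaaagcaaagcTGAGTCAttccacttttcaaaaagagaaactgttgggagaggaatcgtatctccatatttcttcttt
EGFR: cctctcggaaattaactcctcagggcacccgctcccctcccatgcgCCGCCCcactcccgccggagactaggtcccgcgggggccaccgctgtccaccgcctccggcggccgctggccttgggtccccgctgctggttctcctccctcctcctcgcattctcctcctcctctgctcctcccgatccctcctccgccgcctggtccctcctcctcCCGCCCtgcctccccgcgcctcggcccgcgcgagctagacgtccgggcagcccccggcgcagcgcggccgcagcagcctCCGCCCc

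The 4 members without reads in C4-2B had no motif in common. AREG held a cyclic AMP response element beginning at position -65 from its start, a TATA box at -29 and a GC box at -9, whereas EREG held a TATA box at -32 and no GC box. BTC and ERBB4 held 1 GC box each, beginning at 22 in BTC and at -226 in ERBB4. TGFA held 4 GC boxes and EGFR 3, neither with a TATA box, and EGF held an AP-1 match at -17 and neither a GC box nor a TATA box. Of 35116 RefSeq promoters of the same length, 1.85% held the cyclic AMP response element, 11.5% the TATA box, 45% the GC box and 7.71% the AP-1 letters. CpG pairs numbered 33 in EGFR, 30 in TGFA, 27 in AREG, 19 in ERBB4, 12 in BTC and in EREG, and 4 in EGF, against a median of 14 over all promoters. EGF was also lowest of these 7 in GC content, at 46.7%, and EGFR and TGFA were highest, both at 75.3%. These matches describe the letters of the windows and were not set against any binding data.

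No receptor or ligand gene passed the test for a response to the 56 mer in either line. Changes were tested with limma on log2 of the authors' normalized count plus 1, over all genes with at least 10 normalized counts in at least 3 of a line's 6 libraries. In 22RV1 0 of the 9 members tested reached an adjusted p of 0.05, as did 0.00975% of 20517 genes, which is 2 genes. In C4-2B 0 of the 6 members tested reached it, as did 0.066% of 16657 genes, which is 11 genes. EREG in 22RV1 and ERBB4, AREG, EREG and BTC in C4-2B were too low to be tested. At an unadjusted p under 0.05 there were 2 members in 22RV1, EGFR and AREG, both higher, where 3.91% of genes reached that level, 1.76% higher and 2.15% lower. In C4-2B there was 1, EGFR, lower, where 8.92% of genes reached that level, 4.89% higher and 4.03% lower. These counts depended on the settings. In 22RV1 1 member reached that level with quantile normalization, equal totals, no filter, a filter at a mean of 50 or a pseudocount of 10, beside 538 to 1352 genes. In C4-2B 2 members did with equal totals, beside 1523 genes, and 0 with GC content and length corrected, beside 1383. With a library left out the counts ran from 0 to 2 in each line, beside 632 to 1231 genes in 22RV1 and 1024 to 1880 in C4-2B. By limma without trend or robust variance 0 members reached that level in either line, beside 904 of 20517 genes in 22RV1 and 1138 of 16657 in C4-2B. In 22RV1 the unadjusted limma p was then 0.0972 for EGFR and 0.0537 for AREG. In bulk RNA a lower level in each cell and fewer cells carrying the transcript cannot be told apart.

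**Figure D3:**
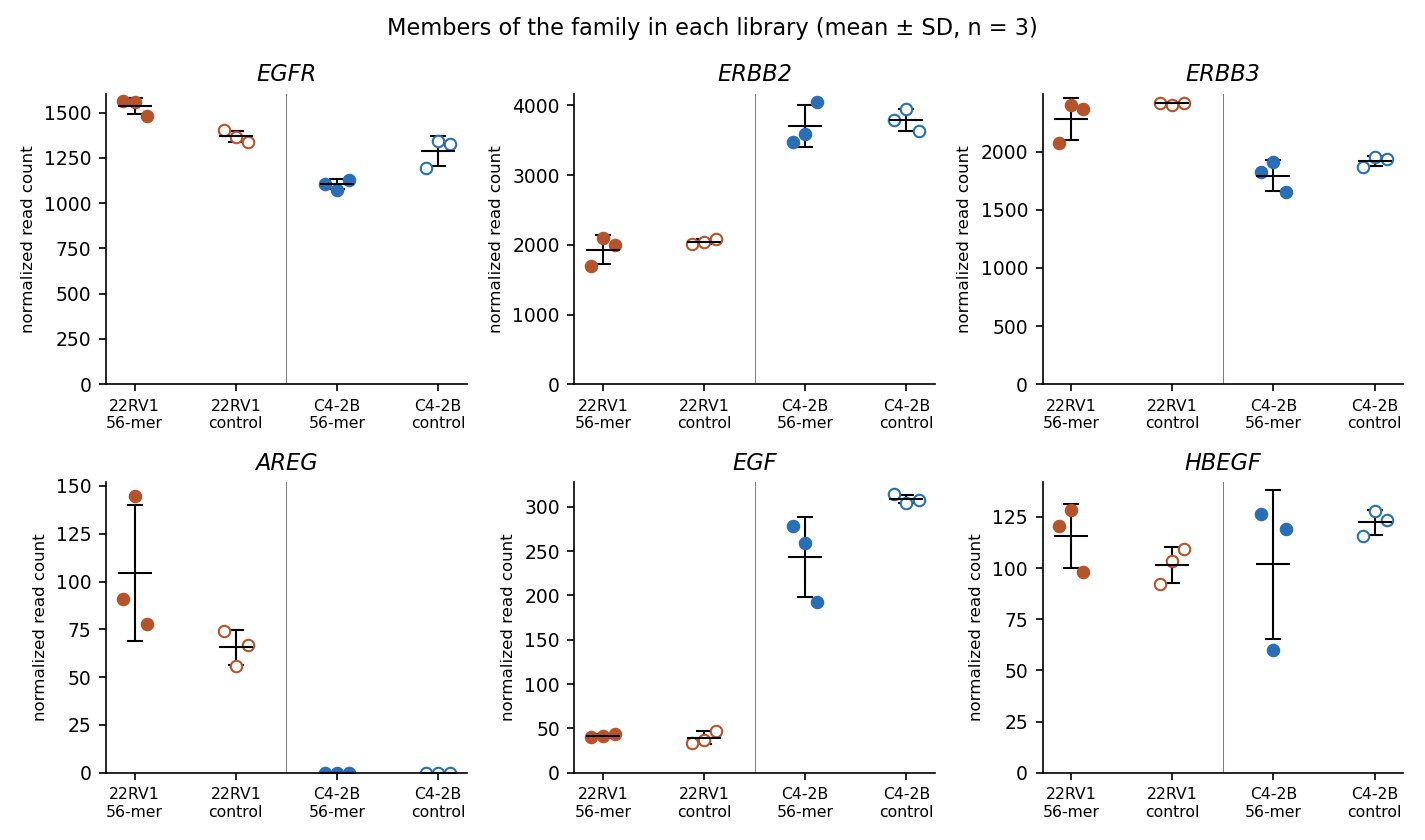
Normalized count of EGFR, ERBB2, ERBB3, AREG, EGF and HBEGF in every library, on linear axes that start at 0, with 1 point per library and the mean ± SD of 3 libraries as bars. The 56 mer libraries of EGFR lie above the controls in 22RV1 and below them in C4-2B, and AREG is at 0 throughout C4-2B.

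EGFR, which all 6 ligands bind, had 1563, 1559 and 1483 normalized counts in the 22RV1 libraries with 56 mer, against 1402, 1365 and 1340 in 22RV1 controls. All 3 libraries with 56 mer lay above all 3 controls. The log2 change was 0.16 ± 0.082 (SE), with an unadjusted limma p of 0.0499 and an adjusted p of 0.9996. In C4-2B EGFR had 1108, 1074 and 1130 normalized counts with 56 mer, against 1194, 1345 and 1324 in controls, so that all libraries with 56 mer lay below all controls. The log2 change there was -0.22 ± 0.099 (SE), with an unadjusted limma p of 0.0358 and an adjusted p of 0.532. The C4-2B groups were also separated in their trend with transcript length and overlapped in that with GC content. With both trends corrected the change of EGFR in C4-2B was -0.15, with an unadjusted limma p of 0.118. Among all genes tested, 4.45% had 56 mer libraries all above the controls in 22RV1 and 7.08% had them all below the controls in C4-2B; the share above the controls in C4-2B was 7.59%. The authors' deposited table gives EGFR a log2 fold change of 0.16 with an adjusted p of 0.999995 in 22RV1 and of -0.22 with an adjusted p of 1 in C4-2B.

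Changes of EGFR differed in direction between the lines without passing the test over all genes. The difference of the log2 changes, 22RV1 minus C4-2B, was 0.38 ± 0.12 (SE), with a 95% interval of 0.14 to 0.62, an unadjusted limma p of 0.00308 and an adjusted p of 0.534. At an unadjusted p under 0.05 EGFR was 1 of 6 members tested for a difference, against 7.9% of 15527 genes. No gene reached an adjusted p of 0.05 for a difference between the lines, a share of 0.0%. Groups that did not overlap in either line and lay in opposite directions were found for 127 of the 15527 genes, or 0.818%, and EGFR was one of them. EGFR-AS1, an antisense RNA gene, overlaps 186 bases of EGFR exons and averaged 81.5 normalized counts in 22RV1 and 14.5 in C4-2B; whether counting used strand is not given, so its reads cannot be told apart from those of EGFR there.

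ERBB2, the ligand-less partner receptor, had 1698, 2099 and 1995 normalized counts with 56 mer, against 2012, 2043 and 2080 in controls of 22RV1. The low value was that of the 56 mer 1 library, the one that stood apart by GC content. In C4-2B ERBB2 had 3470, 3588 and 4052 with 56 mer, against 3792, 3953 and 3638 in controls. The groups overlapped in both lines, and the log2 change was -0.089 ± 0.080 in 22RV1 and -0.037 ± 0.078 in C4-2B (SE). The limma 95% interval in 22RV1, from -0.25 to 0.072, leaves room for a modest change in either direction. Exons of ERBB2 overlap those of MIEN1 by 571 bases and of PGAP3 by 194 bases on the opposite strand, so part of these reads could belong to either gene.

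ERBB3, the neuregulin receptor with a weak kinase, had 2070, 2399 and 2365 normalized counts with 56 mer, against 2420, 2405 and 2418 in controls of 22RV1. All 56 mer libraries lay below all controls there, as they did for 4.58% of genes tested, but the 56 mer 2 and 56 mer 3 libraries lay close to the controls and the 56 mer 1 library alone was clearly lower. In C4-2B ERBB3 had 1821, 1908 and 1652 with 56 mer, against 1870, 1953 and 1936 in controls, with overlapping groups. The log2 change was -0.087 ± 0.074 in 22RV1 and -0.10 ± 0.088 in C4-2B (SE). It was -0.019 in 22RV1 without the 56 mer 1 library and -0.042 in C4-2B without the 56 mer 3 library. ERBB4 had 167, 165 and 196 normalized counts with 56 mer, against 199, 179 and 192 in controls of 22RV1, with a log2 change of -0.11 ± 0.17 (SE) and overlapping groups. As a share of the receptor level, EGFR took 21.4% ± 1.84 with 56 mer and 18.6% ± 0.435 in controls of 22RV1, and 13.7% ± 0.421 with 56 mer and 15.1% ± 0.757 in controls of C4-2B (SD, n = 3 each).

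AREG, which encodes the EGFR ligand amphiregulin, had the greatest log2 change among the members tested in 22RV1. It had 91.0, 145 and 77.8 normalized counts in 22RV1 libraries with 56 mer, against 74.0, 55.8 and 66.9 in 22RV1 controls. The 3 libraries with 56 mer lay above the controls, as they did for 4.45% of genes tested in 22RV1. The lowest did so by a small margin, and the 56 mer 2 library lay far above. The log2 change was 0.62 ± 0.26 (SE), a 1.54-fold higher level, with a limma 95% interval of 0.098 to 1.15, an unadjusted p of 0.0210 and an adjusted p of 0.9996. Without the 56 mer 2 library it was 0.36, with an unadjusted limma p of 0.220. The authors' deposited table gives AREG a log2 fold change of 0.66 with an unadjusted p of 0.0377.

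EGF, which encodes the founding ligand of the family, had 278, 259 and 193 normalized counts in C4-2B libraries with 56 mer, against 314, 305 and 308 in C4-2B controls. All 3 libraries with 56 mer lay below the controls, as they did for 7.08% of genes tested in C4-2B, with the 56 mer 3 library lowest. The log2 change was -0.36 ± 0.18 (SE), with a limma 95% interval of -0.73 to 0.0096, an unadjusted p of 0.0558 and an adjusted p of 0.573. Without the 56 mer 3 library it was -0.20, and with the trends in GC content and length corrected it was -0.29. In 22RV1, where EGF was low, it had 40.1, 41 and 44.2 normalized counts with 56 mer, against 34.0, 36.5 and 47.5 in controls, and a log2 change of 0.098 ± 0.34 (SE), which was 0.0022 without control 1 and 0.24 without control 3. The difference of the changes between the lines was 0.46 ± 0.33 (SE), with an adjusted limma p of 0.755, and 0.30 without the C4-2B 56 mer 3 library.

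HBEGF, the heparin-binding ligand, had 120, 128 and 98.1 normalized counts with 56 mer, against 92.0, 104 and 109 in controls of 22RV1. In C4-2B it had 126, 60.1 and 119 with 56 mer, against 116, 128 and 124 in controls. The groups overlapped in both lines, and the low C4-2B mean came from the 56 mer 2 library. The log2 change was 0.18 ± 0.22 in 22RV1 and -0.33 ± 0.29 in C4-2B (SE), and without that library the C4-2B value was 0.0042. The difference between the lines was 0.52 ± 0.38 (SE), with an adjusted limma p of 0.754, and 0.18 without the C4-2B 56 mer 2 library.

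TGFA, which encodes transforming growth factor alpha, had 203, 208 and 186 normalized counts with 56 mer, against 133, 226 and 184 in controls of 22RV1. The groups overlapped and the log2 change was 0.16 ± 0.18 (SE). In C4-2B TGFA had 17.6, 10.5 and 15.6 with 56 mer, against 13.9, 18.2 and 7.62 in controls, and its log2 change of 0.17 ± 0.76 (SE) had a limma 95% interval of -1.39 to 1.74. At this depth a change of that gene in C4-2B of up to several-fold was not detectable. BTC, which encodes betacellulin, had 76.7, 57.4 and 53.9 normalized counts with 56 mer, against 63.0, 88.3 and 52.8 in controls of 22RV1, and a log2 change of -0.10 ± 0.28 (SE). EREG, which encodes epiregulin, had 2 reads in the 22RV1 56 mer 2 library and none elsewhere, which is under the 3 reads that a count of 0 allows.

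**Figure D4:**
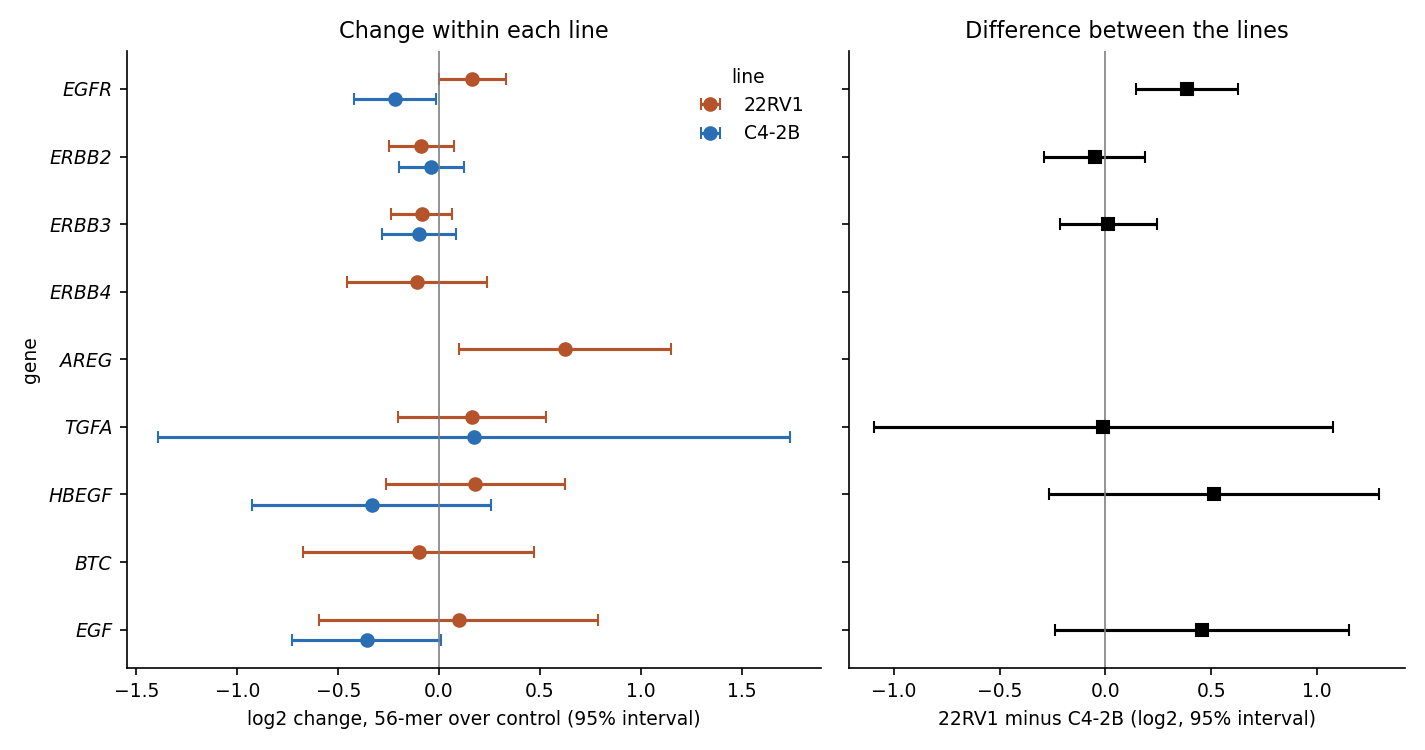
Log2 change of each tested member, 56 mer over control, in 22RV1 and C4-2B (left), and the difference of both changes, 22RV1 minus C4-2B (right), with 95% limma intervals as bars. No value passed the test; EGFR lies at 0.16 in 22RV1 and at -0.22 in C4-2B, and the widest interval is that of TGFA in C4-2B.

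The summed level of the 6 ligands was 14.1 ± 2.30 RPKM with 56 mer and 11.7 ± 0.856 in controls of 22RV1 (SD, n = 3 each). In C4-2B it was 6.36 ± 1.07 with 56 mer and 8.03 ± 0.168 in controls (SD, n = 3 each). Shares of the ligands in C4-2B were alike in mean, EGF taking 52.7% ± 11.8 with 56 mer and 53.8% ± 1.78 in controls, but spread more widely among the 56 mer libraries (SD, n = 3 each). In 22RV1 AREG took 36.5% ± 6.51 of the ligand level with 56 mer and 28.6% ± 6.05 in controls, within the spread between libraries (SD, n = 3 each).

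The other genes of the pathway, taken from lists of related ligands, shedding proteases, adaptors and relay kinases, proteins that restrain the receptors, and ERK feedback and output genes, gave no call in either line. Of all genes tested, 0.00975% were called in 22RV1 and 0.066% in C4-2B. In 22RV1 the 25 of 26 adaptor and relay genes tested held 17 with a positive and 8 with a negative log2 change and a median of 0.031, beside a median of -0.0026 over all genes tested. In C4-2B the 25 tested held 8 positive and 17 negative values with a median of -0.039, beside -0.011 over all genes. All genes tested held 10129 positive and 10388 negative values in 22RV1, and 8052 positive and 8605 negative in C4-2B. MAP2K1, the kinase that activates ERK, had a log2 change of 0.027 in 22RV1 and -0.039 in C4-2B. PTPN11, the phosphatase SHP2 that relays receptor signals to RAS, had 0.097 in 22RV1 and -0.23 ± 0.11 in C4-2B (SE), where its unadjusted limma p was 0.0438 and its adjusted p 0.544.

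The 15 genes of receptor restraint were all tested in both lines. In 22RV1 10 had positive and 5 negative log2 changes with a median of 0.029, and in C4-2B 4 were positive and 11 negative with a median of -0.057. Over all genes tested 10129 were positive and 10388 negative in 22RV1, and 8052 positive and 8605 negative in C4-2B. ERRFI1, which encodes the inhibitor MIG6 that binds the EGFR kinase, had 2010, 1812 and 1699 normalized counts with 56 mer, against 1392, 1686 and 1517 in controls of 22RV1. All libraries with 56 mer lay above the controls, as they did for 4.45% of genes tested in 22RV1. The highest value was that of the 56 mer 1 library, the one that stood apart by GC content, and the part of that trend was not tested. The log2 change of ERRFI1 was 0.27 ± 0.084 (SE), with an unadjusted limma p of 0.00288 and an adjusted p of 0.9996. In C4-2B ERRFI1 had a log2 change of -0.0063 ± 0.17 (SE) with overlapping groups. STUB1, a ubiquitin ligase gene that acts on ERBB2, had -0.060 in 22RV1 and 0.14 in C4-2B. LRIG1, LRIG2 and SOCS4, also of this list, had log2 changes of -0.34, -0.51 and -0.39 in C4-2B. Each had an unadjusted limma p under 0.05, and the adjusted p-values were 0.452, 0.456 and 0.515. They were singled out after their values were seen. These were 3 of 15 genes, where 4.03% of all genes tested in C4-2B were lower at that level, and the part of the length and GC trends in them was not tested.

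Of the 19 ERK feedback and output genes, 19 were tested in 22RV1, with 16 positive and 3 negative log2 changes and a median of 0.069, beside 10129 positive and 10388 negative values over all genes tested. In C4-2B 13 were tested, with 7 positive and 6 negative values and a median of 0.010, beside 8052 positive and 8605 negative values over all genes. CCND1, the cyclin D1 gene, averaged 28464 normalized counts with 56 mer and 28043 in controls of 22RV1, and 3957 with 56 mer and 3925 in controls of C4-2B. JUNB, an immediate early gene, had a log2 change of 0.11 in 22RV1 and -0.073 in C4-2B. The highest values in C4-2B were those of the weakly read SPRED1, SPRED3 and ETV4, at 1.23 ± 0.76, 1.20 ± 0.85 and 1.02 ± 0.81 (SE), with adjusted limma p-values of 0.671, 0.701 and 0.747. The 56 mer libraries all lay above the controls for SPRED3, as they did for 7.59% of genes tested in C4-2B, and overlapped them for SPRED1 and ETV4. In 22RV1 SPRY4, singled out like these after its value was seen, had 305, 302 and 277 normalized counts with 56 mer, against 218, 259 and 208 in controls, and a log2 change of 0.37 ± 0.15 (SE) with an adjusted limma p of 0.9996. Of 10 shedding genes 8 were tested in each line, with 6 positive and 2 negative values in 22RV1 and 4 of each in C4-2B. ADAM15 had -0.047 in 22RV1 and 0.010 in C4-2B, and ADAM9 had 0.038 in 22RV1 and -0.25 ± 0.11 (SE) in C4-2B, with an adjusted limma p of 0.531. Of the 5 other EGF-like ligands, NRG4, which encodes a neuregulin that binds ERBB4, was tested in both lines. Its log2 change was 0.13 ± 0.23 in 22RV1 and 0.14 ± 0.89 in C4-2B (SE), where it had 4 to 29 reads per library. NRG3, another ERBB4 ligand gene, had -0.045 in 22RV1 and no reads in C4-2B.

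**Figure D5:**
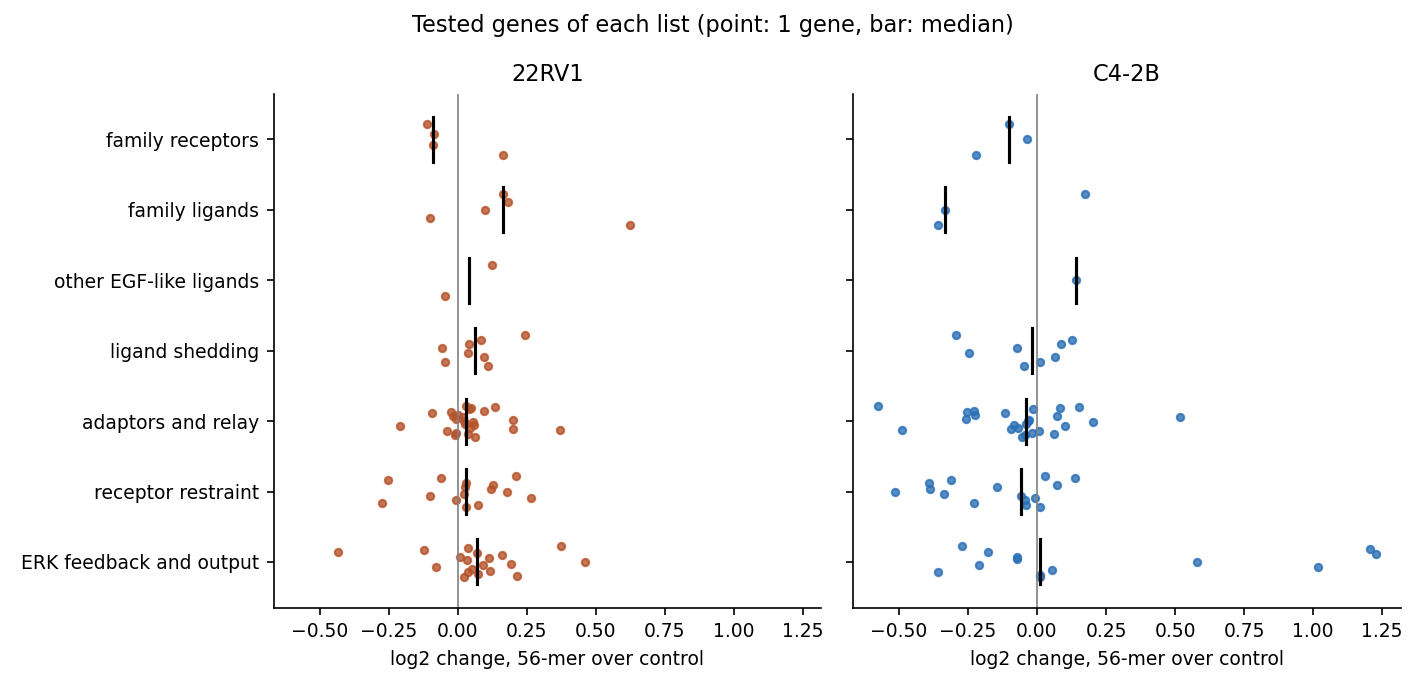
Log2 changes, 56 mer over control, of the members and of the pathway lists in 22RV1 and C4-2B, with 1 point per gene tested and a bar at the median of each list. The list medians lie between -0.33 and 0.16, and that of the members' ligands in C4-2B rests on 3 genes.

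The lines also differed in the control levels of the ERK feedback and output genes. In 17 of 19 of them, or 89.5%, all 22RV1 controls had a higher RPM than all C4-2B controls, beside 52.7% of the 21647 genes tested in at least 1 line. For receptor restraint the count was 10 of 15, for adaptors and relay 16 of 26 and for shedding 6 of 10. CCND1, the highest of the output genes, averaged 2341 RPM in 22RV1 controls and 337 in C4-2B controls. Chosen after their values were seen, DUSP6, an ERK phosphatase gene, had 20.5 in 22RV1 and 0.435 in C4-2B, SPRY4, an inhibitor of receptor signalling, had 19.0 in 22RV1 and 0 in C4-2B, and the ERK-induced transcription factor gene ETV5 had 47.8 in 22RV1 and 0.297 in C4-2B. PHLDA1 was the exception in the other direction, at 41.4 in 22RV1 and 66.0 in C4-2B. ERRFI1 followed the majority, at 128 ± 12.1 in 22RV1 and 26.7 ± 1.54 in C4-2B (SD, n = 3 each). These levels too come from separately normalized tables and carry no test. The lists were chosen with earlier results of these data known, and ERK activity was not measured. The C4-2B libraries detected fewer genes, and the part of that in these counts was not tested.

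ERBB2 and EGF had the highest control level of any receptor and of any ligand in either line, both in C4-2B; in 22RV1 ERBB3 and AREG led. The genes whose values followed ERBB2 and EGF most closely were found over the 12 libraries after each line was centred on its mean, among 15526 other genes. For ERBB2 they were DVL2 with a Pearson r of 0.933, AC005481.1 with 0.920 and AC068580.3 with 0.906. For EGF they were MTO1 with 0.896, AC006369.1 with 0.885 and CTCF with 0.876. These values share the libraries and their depth and composition, among them the GC trend of the 22RV1 56 mer 1 library, and are given as a description.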

How the data were processed

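For each cell line the authors deposited a table of normalized counts and a table of their own comparison. Entries of the first are signal: gene counts which the authors divided by a size factor for each library, each line on its own. 100% of them are whole multiples of 1 step per library within a tolerance of 0.01, and that step gave the reads. In 22RV1 control 1 the step was 0.9999, so close to 1 that whole multiples are a weaker check of it there. Per the file headers, the second holds a mean signal, log2 fold changes (56 mer over control), their standard error, a test score and p-values. DESeq is named, without a version, per the submitters' processing notes. The sources used here do not give aligner, counter, strand, build or annotation.

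Genes with at least 10 normalized counts in at least 3 of a line's 6 libraries were tested two-sided with limma 3.58.1 in R 4.3.3 (eBayes with trend and robust settings) on log2 values, pseudocount 1, with Benjamini-Hochberg adjustment over all genes tested and a threshold of 0.05. The difference between lines was the difference of both log2 changes in 1 fit of the 12 libraries. Levels per kb used exon lengths from GENCODE 29; promoters came from a RefSeq table in which 9 of the 10 members were matched. Alternatives were other scalings, filters, pseudocounts and variance settings, a correction for GC content and length, edgeR 4.0.16, DESeq2 1.42.0 and limma-voom on recovered reads, and leaving out each library.

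The members and lists were chosen with earlier results of these data known. Named were all members, and of each list any gene past the threshold and the 2 with the highest control level; the 3 genes most like the highest receptor and ligand were named by Pearson correlation. Means carry SD and log2 changes SE. Replicate numbers follow the order of the records.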

Additional observations from a re-analysis of the deposited data

Results flagged for a closer look

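The log2 change of EGFR with the 56 mer lay in opposite directions in the lines, and the difference did not pass the test over all genes. The difference of its log2 changes, 22RV1 minus C4-2B, was 0.38 ± 0.12 (SE), with an unadjusted limma p of 0.00308 and an adjusted p of 0.534, and it was marked because every 56 mer library lay above the controls in 22RV1 and below them in C4-2B. Of 15527 genes, 0.818% had this kind of opposite separation, and 7.9% had an unadjusted limma p under 0.05 for a difference. The p-value of EGFR comes from the same values that marked it, so it is no separate support.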

How the results depend on the processing

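No paired analysis was possible because nothing in the labels ties a 56 mer library to a control library. No member passed an adjusted p of 0.05 in either line, or for the difference between lines, under any alternative; DESeq2 gave no adjusted p for HBEGF, EGF and TGFA in C4-2B and for HBEGF and TGFA in the difference. EGFR kept its direction under all alternatives, from 0.15 to 0.19 in 22RV1, from -0.27 to -0.15 in C4-2B and from 0.30 to 0.44 for the difference, whose adjusted p was 0.200 or higher. With GC content and length corrected, EGFR in C4-2B had -0.15 with an unadjusted limma p of 0.118. In 22RV1 the unadjusted p of EGFR ran from 0.0310 (limma with GC and length corrected) to 0.134 (limma without control 3).

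Some changes turned sign, most of them near 0 in the reported fit but that of HBEGF in C4-2B at -0.33, and the cause was not tested. In 22RV1 ERBB2 was 0.00087 without 56 mer 1, TGFA -0.040 without control 1 and 0.34 without control 2, and BTC 0.10 without control 2 and -0.26 without control 3. In C4-2B ERBB2 was 0.0079 without 56 mer 1 and -0.10 without 56 mer 3, TGFA -0.15 without control 3 and 0.43 without control 2, and HBEGF 0.0042 without 56 mer 2 and -0.53 without 56 mer 1. For the difference between lines, leaving out 1 library at a time gave -0.11 to 0.038 for ERBB2, -0.045 to 0.081 for ERBB3 and -0.26 to 0.32 for TGFA. The sign turned for ERBB2 in 2 of these settings (0.038 without 22RV1 56 mer 1, 0.015 without C4-2B 56 mer 3). It turned for ERBB3 with GC and length corrected (-0.016), with DESeq2 (-0.013) and without 22RV1 56 mer 2 (-0.026), 22RV1 56 mer 3 (-0.015) or C4-2B 56 mer 3 (-0.045). It turned for TGFA with equal totals (0.012), a pseudocount of 10 (0.061) and without 22RV1 56 mer 3 (0.038), 22RV1 control 2 (0.17), 22RV1 control 3 (0.018), C4-2B 56 mer 1 (0.13), C4-2B 56 mer 3 (0.050) or C4-2B control 3 (0.32).

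Counts of all genes called were unstable. In 22RV1, against 2 in the reported fit, there were 11 without a filter, 7 with GC and length corrected, 4 with limma-voom, 0 by limma without trend or robust variance (904 at an unadjusted p under 0.05), and 0 to 11 with a library left out. In C4-2B, against 11 (8 higher and 3 lower), there were 34 without a filter, 21 with GC and length corrected, 1 without trend or robust variance, 42 with DESeq2, 0 with edgeR (1399 at an unadjusted p under 0.05), and 0 to 81 with a library left out, the 81 without 56 mer 1. Quantile normalization gave 2 higher and 8 lower in C4-2B, and equal totals 4 higher and 7 lower. For the difference between lines, against 0 by limma (1227 at an unadjusted p under 0.05), there were 5 without a filter, 5 with GC and length corrected, 11 with DESeq2, 1 each with quantile normalization, edgeR, limma-voom and no trend or robust variance, and 0 to 13 with a library left out. With 9 to 18 reads per library, the change of TGFA in C4-2B had the widest interval of the members tested. Using the longest transcript as length moved 12 of the members' levels in controls by more than 1 SD.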
